A study of Caenorhabditis elegans with 6 samples.

Results

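Glycolysis, gluconeogenesis, the citric acid cycle and the glyoxylate bypass were followed through a list of 37 enzyme genes of Caenorhabditis elegans. Members were found by matching the gene identifier of each array probe to the listed names. Of the 37 genes, 33 had at least 1 named probe, and all 33 were among the 19817 features tested. The genes hxk-3, gpd-2, gpd-4 and fum-1 were matched to no named probe and were not analysed here. The 33 genes were represented by 113 probes, and 9 of these were dropped by the filters on signal and on outlier spots.

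Whole young adults picked before they began to reproduce were compared between 2 strains grown on agar with OP50 bacteria. WTN2 is the wild type, and RB1035 carries a mutant allele of flcn-1, the worm counterpart of the human tumour suppressor folliculin, after 8 backcrosses to WTN2. Each strain was measured on 3 single-colour Agilent arrays described by the submitters as biological triplicates. RB1035 is 1 strain with 1 allele, so effects of flcn-1 and of any other variant left after backcrossing cannot be told apart.

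Glycolysis breaks glucose down to pyruvate, and gluconeogenesis runs most of the same steps backwards, with its own enzymes at the steps that glycolysis makes irreversible. The citric acid cycle oxidises acetyl-CoA in mitochondria. The glyoxylate bypass skips the decarboxylating steps of that cycle, and nematodes, unlike mammals, use it to turn stored fat into sugar.

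The share of the 43603 probes that stood well above background ran from 68.1% to 73.1% per array, and no spot was saturated. WTN2 1 and RB1035 1 lay on slide 1, and the other 4 arrays lay on slide 2. Copies of the same probe varied more on RB1035 2 (median coefficient of variation 22.4%) and RB1035 3 (20.9%) than on the other arrays (8.19% to 10.9%). Across all features 20 changed, 4 of them higher and 16 lower in RB1035. The flcn-1 probe differed by -0.11 (limma adjusted p = 0.901). The sources used here do not say which part of flcn-1 the allele alters, so this value does not check the strain labels.

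All levels below are log2 signals relative to the 75th percentile of the probes on the same array, and all differences are RB1035 minus WTN2 on that scale. Probes differ in how brightly they report, so no gene's level was ranked against another's. Because the RNA came from whole animals, fewer cells of a type and less RNA per cell cannot be told apart in any value given here.

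None of the 33 genes passed the test for a change between the strains (limma, Benjamini-Hochberg adjusted p under 0.05), where 0.101% of all features did. The lowest adjusted p among them was 0.65. At an unadjusted p under 0.05 there was 1 gene, pfk-1.2, or 3.03% of the members against 7.24% of all features. Every RB1035 array lay above every WTN2 array for 1 gene, fbp-1, where 5.22% of all features did so. Every RB1035 array lay below every WTN2 array for 1 gene, pfk-1.2, where 6.74% of all features did so.

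The differences leaned upward in number, with 29 of 33 genes above 0 (87.9%) against 50.3% of all features. Their median was 0.28, beside 0.00 over all features. Without the array WTN2 3 the median of the members was 0.14, and without RB1035 2 it was 0.16. With normexp background correction the median of all features moved to 0.18 and that of the members was 0.23, a gap of 0.04 before rounding. There 29 members were higher, against 65.7% of all features. The median of the members was 0.28 with quantile normalization, 0.24 in the deposited series table and 0.27 with the mean of probes. Without RB1035 1 it was 0.39. The lean was not shared by the slides. On slide 1, with 1 array per strain, 13 of the 33 genes were higher in RB1035, against 47.9% of all features. Their median there was -0.07. On slide 2, with 2 arrays per strain, 27 were higher, against 49.7% of all features, and the median was 0.45.

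**Figure D1:**
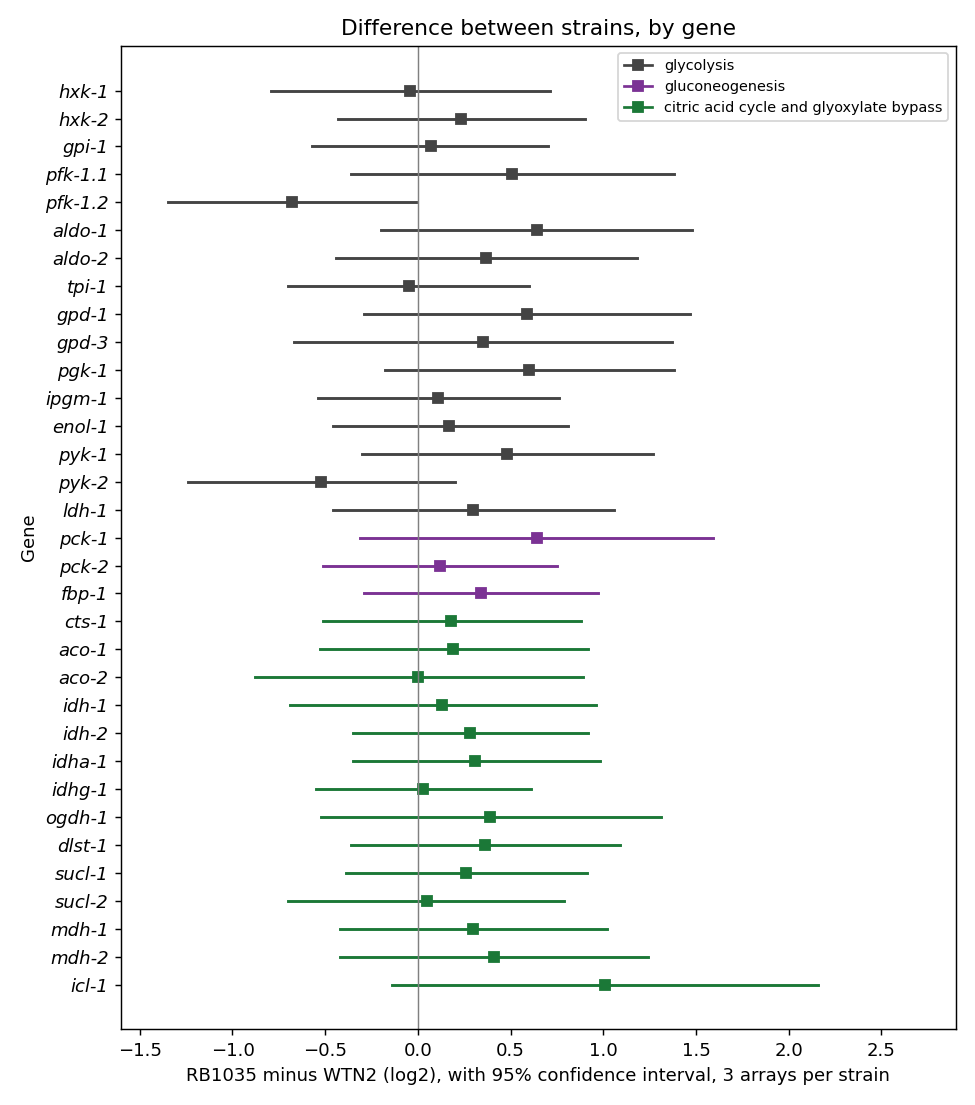
Difference between RB1035 and WTN2 for each of the 33 measured genes, as the log2 signal of RB1035 minus WTN2 on the horizontal axis. Squares are limma estimates over 3 arrays per strain and lines are their 95% confidence intervals. The intervals of 32 genes include 0, and icl-1 (1.01) and pfk-1.2 (-0.68) have the most positive and the most negative estimates.

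The precision behind these values is set by 3 arrays per strain. The half-width of the 95% confidence interval ran from 0.58 for idhg-1 to 1.15 for icl-1, with a median of 0.73. For 17 genes the interval lay within -1 to 1, so a change of more than 2-fold lay outside it. For the other 16 it reached past 1 or -1. The estimate itself was within 0.2 of 0 for 12 genes and more than 0.5 from 0 for 8.

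Glycolysis was represented by 16 of its 19 listed genes. None of the 16 passed the test, 12 were higher and 4 lower in RB1035, and their median difference was 0.27. On slides 1 and 2 the medians were -0.09 and 0.49. The 4 with lower values were hxk-1, pfk-1.2, tpi-1 and pyk-2.

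Hexokinase traps glucose in the cell by phosphorylating it. The level of hxk-1 was 0.63, 1.38 and 1.61 on the WTN2 arrays 1, 2 and 3 and 0.97, 1.18 and 1.35 on the RB1035 arrays. At this brightest probe the RB1035 arrays all fell inside the WTN2 range, and the difference was -0.04 (adjusted p = 0.97). The 3 probes of hxk-1 ranged from -0.04 to 0.31, and 2 of them were higher in RB1035 on both slides. For hxk-2 the difference was 0.23 (adjusted p = 0.777), with levels of -2.09 to -1.61 in WTN2 and -1.92 to -1.31 in RB1035. The gene for glucose-phosphate isomerase, gpi-1, which makes fructose phosphate for the next step, differed by 0.07 (adjusted p = 0.938).

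Phosphofructokinase commits sugar to glycolysis and is encoded by pfk-1.1 and pfk-1.2. The level of pfk-1.2 was -0.65, 0.02 and 0.05 in WTN2 and -0.83, -0.98 and -0.79 in RB1035. All RB1035 arrays were below all WTN2 arrays, and the lowest WTN2 array, number 1, was the one closest to them. The means were -0.19 ± 0.40 and -0.87 ± 0.10 (SD, n = 3 each), and limma gave a difference of -0.68 ± 0.29 (SE), an unadjusted p of 0.049 and an adjusted p of 0.65. Within slides 1 and 2 it came to -0.18 and -0.93, and it rests on a single probe.

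The paralogue pfk-1.1 read 1.58, 2.39 and 1.30 in WTN2 and 1.88, 2.14 and 2.77 in RB1035. Its strains overlapped, with WTN2 2 above RB1035 arrays 1 and 2. The difference was 0.51 (95% confidence interval -0.36 to 1.38, adjusted p = 0.676), and both of its probes gave higher values in RB1035 on both slides (0.51 and 0.59 over all arrays).

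Aldolase splits fructose bisphosphate into a pair of triose phosphates. For aldo-1 the levels were 2.68, 2.86 and 2.51 in WTN2 and 2.61, 3.91 and 3.45 in RB1035. RB1035 1 lay inside the wild-type range, whereas RB1035 2 and 3 lay above it. The difference was 0.64 ± 0.37 (SE, adjusted p = 0.652), made up of -0.08 on slide 1 and 1.00 on slide 2. For aldo-2 the slides gave opposite signs, -0.57 and 0.84, around a difference of 0.37 (adjusted p = 0.725), and its 6 probes ranged from 0.12 to 0.37. Its difference was 0.10 with normexp, 0.12 in the deposited series table, and 0.15 (without WTN2 3) to 0.63 (without WTN2 1) with single arrays left out.

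Triose-phosphate isomerase, which interconverts the products of aldolase, is encoded by tpi-1 and differed by -0.05 (adjusted p = 0.95) at its brightest probe. Its levels were 1.89 to 2.42 in WTN2 and 1.79 to 2.23 in RB1035. The 6 probes of tpi-1 did not behave alike on slide 1, where the brightest gave -0.10 and the other 5 gave 0.77 to 0.84. Over all arrays the 6 probes ranged from -0.05 to 0.26.

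Glyceraldehyde-phosphate dehydrogenase carries out the oxidative step of glycolysis. The gene gpd-1 read 4.55, 4.98 and 3.85 in WTN2 and 4.52, 5.43 and 5.20 in RB1035. The strains overlapped through RB1035 1, and WTN2 3 was the lowest array. The difference was 0.59 (adjusted p = 0.662), with -0.03 on slide 1 and 0.90 on slide 2. The gene gpd-3 differed by 0.35 (adjusted p = 0.78), and its 6 probes ranged from -0.32 to 0.54. The sequences of gpd-2 and gpd-3, and those of gpd-1 and gpd-4, are nearly identical, so a probe named for one may also report its partner.

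Phosphoglycerate kinase, the enzyme of the step that yields ATP next, is encoded by pgk-1. Its levels were 4.01, 4.18 and 3.66 in WTN2 and 3.95, 4.95 and 4.77 in RB1035. As for aldo-1, RB1035 2 and 3 stood above all wild-type arrays and RB1035 1 did not. The difference of 0.60 (adjusted p = 0.652) came to -0.07 on slide 1 and 0.94 on slide 2.

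The phosphoglycerate mutase gene ipgm-1 differed by 0.11 (adjusted p = 0.896), although its 4 probes ranged from 0.00 to 0.89 and their mean gave 0.32. The probe at 0.89 read 1.09 on WTN2 3 and 2.78 to 3.53 on the other arrays, and the next highest probe gave 0.29. Enolase, encoded by enol-1, differed by 0.17 (adjusted p = 0.827), and its 7 probes ranged from -0.20 to 0.28. Both genes overlapped between the strains.

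Pyruvate kinase closes glycolysis and is encoded by pyk-1 and pyk-2. The level of pyk-1 was 4.0, 3.77 and 3.33 in WTN2 and 3.64, 4.63 and 4.28 in RB1035, a difference of 0.48 (adjusted p = 0.673). The level of pyk-2 was 3.57, 3.46 and 3.89 in WTN2 and 3.56, 2.66 and 3.15 in RB1035, a difference of -0.52 (adjusted p = 0.653). In both genes RB1035 1 stayed inside the wild-type range and the other RB1035 arrays lay outside it, above for pyk-1 and below for pyk-2. On slide 2 the differences were 0.90 for pyk-1 and -0.77 for pyk-2, and on slide 1 they were -0.36 and -0.01. All 4 probes of pyk-1 gave 0.39 to 0.67, whereas those of pyk-2 gave -0.52, -0.08, -0.05 and 0.19. With the mean of its probes in place of the brightest, pyk-2 differed by -0.11.

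Lactate dehydrogenase, which regenerates NAD from pyruvate when respiration is limited, is encoded by ldh-1. It differed by 0.30 (adjusted p = 0.756), with levels of 3.44 to 4.04 in WTN2 and 3.53 to 4.46 in RB1035.

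**Figure D2:**
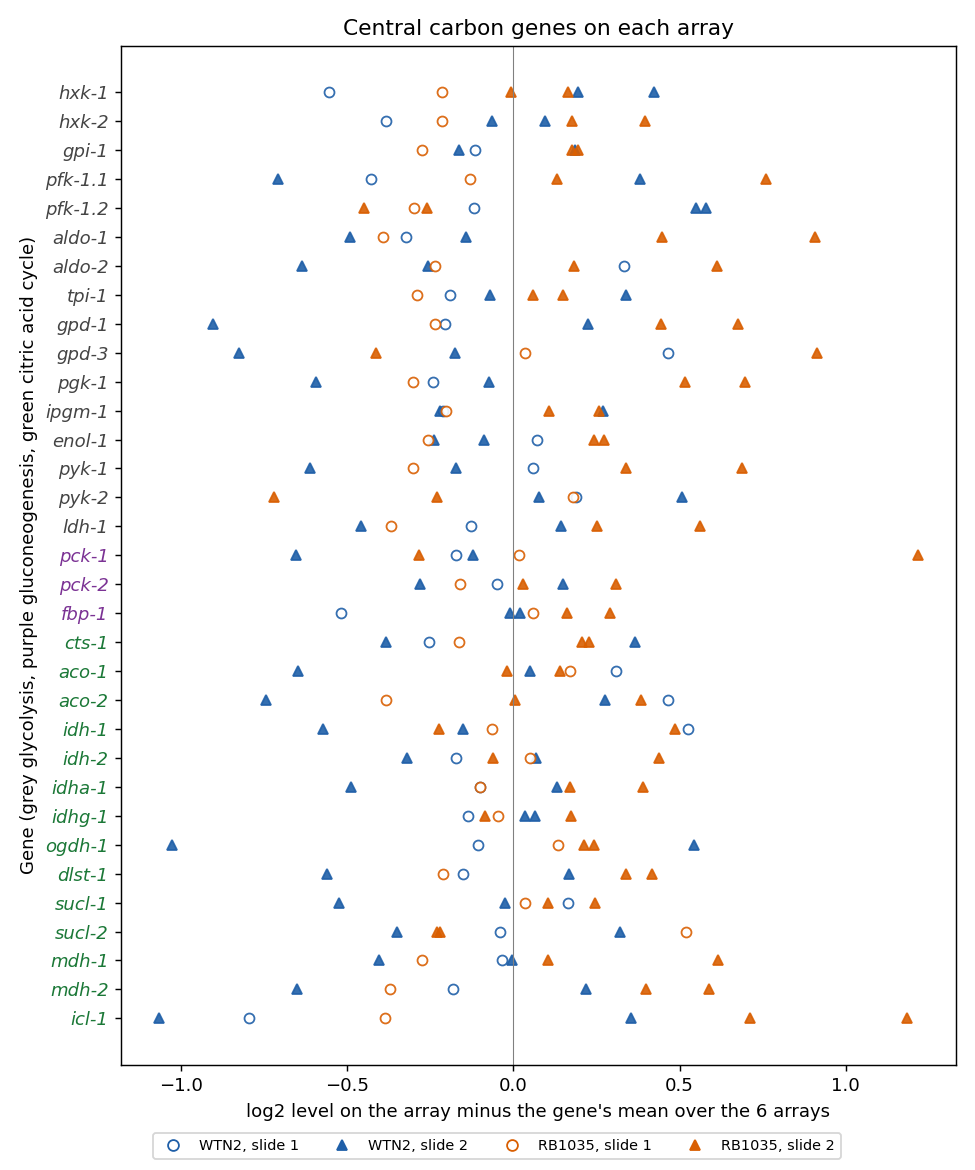
Level of each of the 33 genes on each of the 6 arrays, as the log2 level minus that gene's mean over the arrays. Colour gives the strain, and open circles and filled triangles give slides 1 and 2. WTN2 3 is the lowest array for 24 genes and RB1035 2 the highest for 19, while the strains separate completely only for fbp-1 and pfk-1.2. The shares of all features lowest or highest on these arrays were not counted.

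Gluconeogenesis was represented by all 3 listed genes, each higher in RB1035 and none past the test, with a median difference of 0.34 (0.19 on slide 1 and 0.23 on slide 2). Fructose bisphosphatase, encoded by fbp-1, reverses the phosphofructokinase step. Its level was 1.54, 2.05 and 2.08 in WTN2 and 2.12, 2.35 and 2.22 in RB1035. All RB1035 arrays lay above all WTN2 arrays, by the narrow gap between WTN2 3 and RB1035 1. The difference was 0.34 ± 0.28 (SE; unadjusted p = 0.251, limma adjusted p = 0.692). It was 0.57 on slide 1 and 0.22 on slide 2, and all 5 probes of fbp-1 were higher in RB1035 on both slides, at 0.26 to 0.55 over all arrays.

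Phosphoenolpyruvate carboxykinase starts gluconeogenesis from oxaloacetate and is encoded by pck-1 and pck-2. The level of pck-1 was 3.06, 3.11 and 2.58 in WTN2 and 3.25, 4.45 and 2.95 in RB1035. RB1035 2 stood far above the other 5 arrays, and RB1035 3 lay inside the wild-type range. The difference was 0.64 (adjusted p = 0.663), and without RB1035 2 it was 0.19. Of the 8 probes of pck-1 only 2 were kept, at 0.64 and 1.02, and among the other 6 there were 5 that no array measured well above background. The difference of pck-2 was 0.12 (adjusted p = 0.883), with levels of 5.36 to 5.79 in WTN2 and 5.48 to 5.95 in RB1035.

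The citric acid cycle and glyoxylate bypass were represented by 14 of 15 listed genes. None passed the test, all 14 estimates were at or above 0 and their median was 0.27. On slide 1 the median was -0.03 with 7 genes higher in RB1035, and on slide 2 it was 0.46 with 12 higher.

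The enzyme that most defines the bypass, isocitrate lyase joined to malate synthase in a single protein, is encoded by icl-1. Its level was 2.41, 3.56 and 2.14 in WTN2 and 2.82, 4.39 and 3.92 in RB1035. The strains overlapped, because WTN2 2 lay above RB1035 1. The means were 2.70 ± 0.76 and 3.71 ± 0.81 (SD, n = 3 each). The difference of 1.01 ± 0.50 (SE) was the most positive of the 33 genes, with a 95% confidence interval of -0.14 to 2.16, an unadjusted p of 0.079 and a limma adjusted p of 0.65. Both slides gave positive values, 0.41 and 1.31, and all 6 kept probes of icl-1 were higher in RB1035 on both slides, at 0.89 to 1.43 over all arrays. Leaving out single arrays moved the difference between 0.67 (without RB1035 2) and 1.45 (without RB1035 1).

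Citrate synthase, which condenses acetyl-CoA with oxaloacetate and is encoded by cts-1, differed by 0.18 (adjusted p = 0.832; 0.09 and 0.23 on the slides). With normexp cts-1 differed by 0.56 and in the deposited series table by 0.57, and single arrays left out gave 0.04 to 0.41. Aconitase turns citrate into isocitrate, in the cytosol by aco-1 and in mitochondria by aco-2. The gene aco-1 read 3.15, 2.89 and 2.19 in WTN2 and 3.01, 2.98 and 2.82 in RB1035, and its strains overlapped, with WTN2 3 well below the rest. Its difference was 0.19 (adjusted p = 0.829) at the brightest probe, the other 3 probes gave 0.65 to 0.77, and the mean of probes gave 0.58. For aco-2 the difference was 0.00 (adjusted p = 0.997), the average of -0.85 on slide 1 and 0.43 on slide 2 weighted by their arrays, and its 9 probes ranged from -0.26 to 0.28.

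Isocitrate dehydrogenase exists in an NAD-linked form of the cycle itself, whose alpha and gamma subunits are encoded by idha-1 and idhg-1, and in NADP-linked forms encoded by idh-1 and idh-2. The gene idhg-1 held the steadiest level of all members, at 3.82, 4.02 and 3.99 in WTN2 and 3.91, 3.87 and 4.13 in RB1035. Its difference was 0.03 (95% confidence interval -0.55 to 0.61, adjusted p = 0.974), and the arrays of the strains were interleaved. The alpha subunit gene idha-1 differed by 0.31 (adjusted p = 0.721), and its 3 probes, at 0.31 to 0.53, were higher in RB1035 on both slides. The NADP-linked idh-1 differed by 0.13 (adjusted p = 0.901), with -0.59 on slide 1 and 0.49 on slide 2. For idh-2 the difference was 0.28 (adjusted p = 0.732), with 0.22 and 0.32 on the slides.

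Oxoglutarate dehydrogenase follows, and ogdh-1 encodes its dehydrogenase subunit. The level of ogdh-1 was -0.94, -0.29 and -1.86 in WTN2 and -0.70, -0.62 and -0.59 in RB1035. The RB1035 arrays lay close together inside a broad wild-type range, and the difference of 0.39 (adjusted p = 0.738) became -0.02 without WTN2 3. The gene for the succinyltransferase subunit of the same complex, dlst-1, differed by 0.36 (adjusted p = 0.701), and its probes ranged from -0.33 to 0.90.

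The alpha subunits of succinyl-CoA synthetase are encoded by sucl-1 and sucl-2. The difference of sucl-1 was 0.26 (adjusted p = 0.755; -0.13 and 0.45 on the slides). The level of sucl-2 was 2.28, 2.64 and 1.97 in WTN2 and 2.84, 2.10 and 2.09 in RB1035, a difference of 0.05 (adjusted p = 0.961). Here RB1035 1 was the highest array, and the slides gave 0.56 and -0.21, the reverse order of most members.

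Malate dehydrogenase regenerates oxaloacetate, in the cytosol by mdh-1 and in mitochondria by mdh-2. The difference was 0.30 for mdh-1 (adjusted p = 0.746) and 0.41 for mdh-2 (adjusted p = 0.704). Both were lower in RB1035 on slide 1 (-0.24 and -0.19) and higher on slide 2 (0.57 and 0.71). All 6 probes of mdh-2 were higher over all arrays, at 0.28 to 0.54, while the 2 kept probes of mdh-1 gave -0.14 and 0.30, with a mean of 0.08.

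The slides gave opposite signs for 20 of the 33 genes, against 49.1% of all features. On both slides 10 genes were higher in RB1035 and 3 were lower, and for 27 the difference was greater on slide 2. Shares over all features were not counted for these or for the probe counts that follow. Among 23 genes with several kept probes, the probes of 13 were all of one sign over the 6 arrays. Every kept probe was higher in RB1035 on both slides for 8 genes, namely hxk-2, pfk-1.1, pck-1, fbp-1, idh-2, idha-1, ogdh-1 and icl-1, of which 5 have several kept probes. The only gene lower on both slides at every kept probe was pfk-1.2, which has 1 probe.

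**Figure D3:**
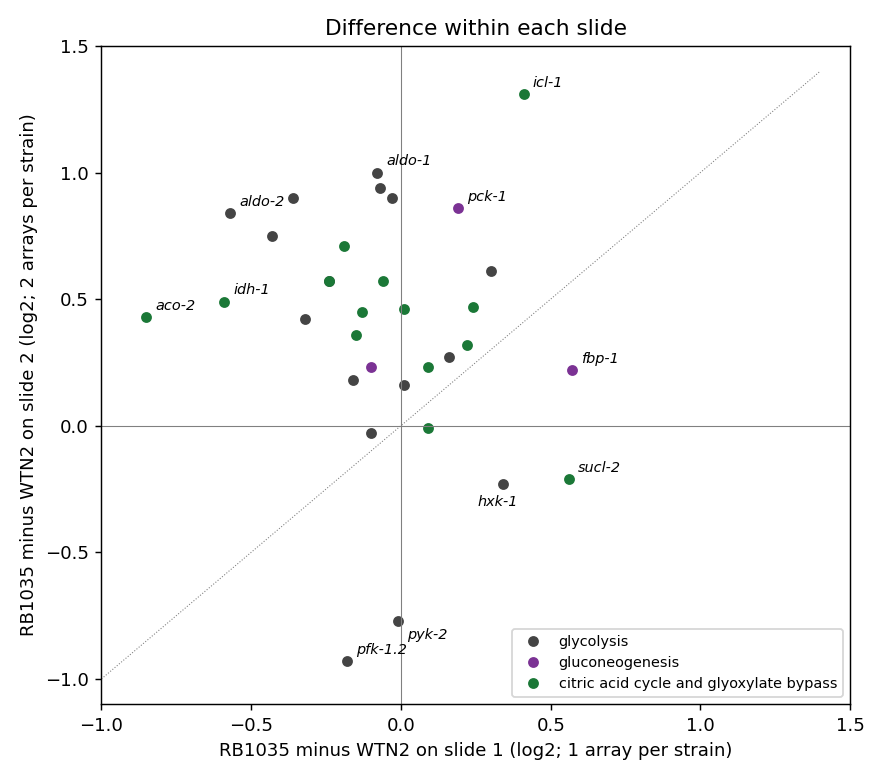
Difference between RB1035 and WTN2 within slide 1 (horizontal, 1 array per strain) and within slide 2 (vertical, 2 arrays per strain) for the 33 genes, as log2 values without a test. Points above the dotted diagonal, 27 of 33, have a greater difference on slide 2, and icl-1 (0.41, 1.31) lies far out in the upper right.

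Paralogues were compared through the ratio of their signals within each array, which shows unequal change and not which gene moved. With 3 arrays per strain the smallest two-sided p of the exact permutation test is 0.1, so no pair could reach 0.05. The ratio of pfk-1.1 to pfk-1.2, centred on its WTN2 mean, was 0.28, 0.42 and -0.71 in WTN2 and 0.76, 1.18 and 1.62 in RB1035. All RB1035 arrays were above all WTN2 arrays, with a difference of 1.19 (exact permutation p = 0.1, 0.7 after Benjamini-Hochberg adjustment over 10 pairs) and values of 0.48 and 1.54 on the slides. It was the only pair of the 10 whose arrays did not overlap.

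The ratio of pyk-1 to pyk-2 was 0.37, 0.25 and -0.62 in WTN2 and 0.02, 1.91 and 1.07 in RB1035, a difference of 1.00 (exact permutation p = 0.3). RB1035 1 lay inside the wild-type range, and the slides gave -0.35 and 1.67. Without RB1035 2 the difference of this ratio was 0.55, and with the mean of probes 0.63. For pck-1 over pck-2 the difference was 0.52 (exact permutation p = 0.3), which was 0.19 without RB1035 2, 0.80 without RB1035 3 and 0.32 with normexp or in the deposited series table. In the other 7 pairs the ratio differed by -0.27 (hxk-1 over hxk-2) to 0.27 (aldo-1 over aldo-2), with exact permutation p of 0.4 to 0.7. The adjusted p was 0.7 for every pair. The pair of gpd-3 and gpd-1 was added after it was seen that gpd-2 and gpd-4 had no probe.

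**Figure D4:**
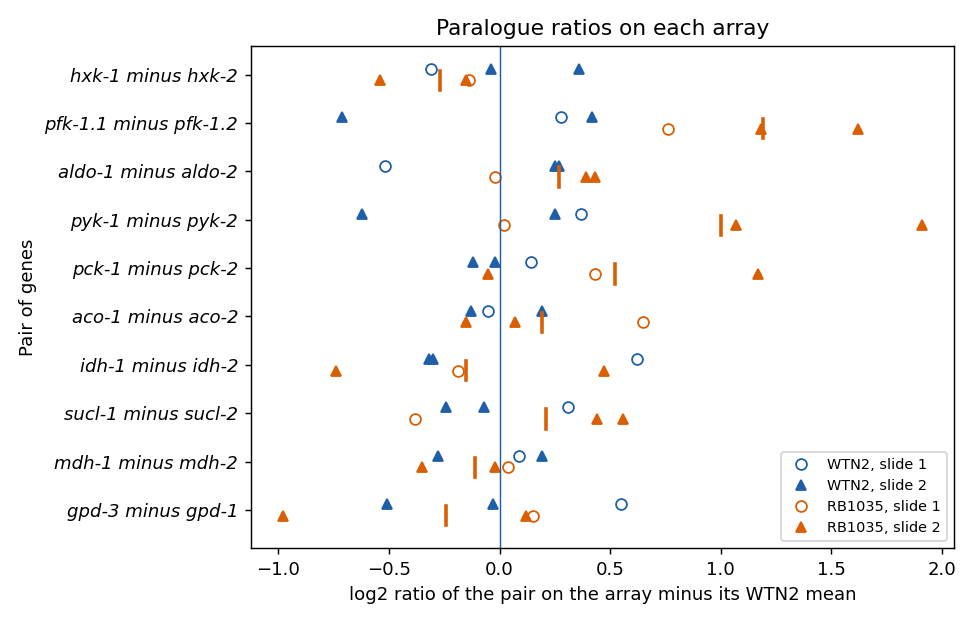
Ratio of paralogue signals within each array for 10 pairs, as the log2 ratio minus its mean over the 3 WTN2 arrays, so that 0 is the wild-type mean. Colour and symbol give strain and slide, and the short bars mark the RB1035 means. Only the pair of pfk-1.1 and pfk-1.2 has all RB1035 arrays above all WTN2 arrays, and RB1035 2 stands highest for pyk-1 over pyk-2 at 1.91.

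WTN2 3 was the lowest array for 24 of 33 genes, and RB1035 2 was the highest for 19. The same shares were not counted over all features, so these counts do not set the members apart. The median deviation of the members from their own 6-array means was -0.13, 0.13 and -0.49 on the WTN2 arrays and -0.21, 0.29 and 0.18 on the RB1035 arrays. RB1035 1 was thus below WTN2 1 and WTN2 2, and only WTN2 3 was lower.

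Markers of several tissues were followed over the same arrays. By median deviation, body wall muscle was the only list to share both its lowest and its highest array with the members. Oocyte markers were also lowest on WTN2 3 (-0.70), and stood at 0.40 on RB1035 2 and 0.47 on RB1035 3. By summed linear signal, intestine markers too were lowest on WTN2 3 (128) and highest on RB1035 2 (192). Of 8 body wall muscle markers, all well above background on all arrays, 7 were higher in RB1035 and none passed the test. The median of their differences was 1.30, with -0.13 and 2.01 on slides 1 and 2. The list was split, with unc-54, myo-3, unc-15, unc-22 and unc-89 at 1.18 to 1.84. The differences of unc-27, lev-11 and act-4 were 0.08, 0.35 and -0.25. The summed linear signal of the 8 markers, relative to the 75th percentile, ran from 86.2 to 149 in WTN2 and from 110 to 169 in RB1035. Their median deviation was -0.51, 0.13 and -1.63 on the WTN2 arrays and -0.65, 1.39 and 1.19 on the RB1035 arrays, so WTN2 3 was lowest and RB1035 2 highest for the muscle markers as for the members.

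Pharyngeal muscle markers were higher for 5 of 5, with a median of 1.19 (0.91 and 1.27 on the slides). This list was split too, with myo-1, myo-2 and myo-5 at 1.19 to 2.02. The differences of tnc-2 and tni-4 were 0.08 and 0.21, and on slide 2 they were -0.10 and -0.09. In WTN2 only 2 of the 3 arrays measured myo-5 well above background. By median deviation they were lowest on WTN2 1 (-1.08). Their sums were 9.55 to 18.7 in WTN2 and 14.7 to 22.6 in RB1035. Oocyte markers were higher for 7 of 7, with a median of 0.51 (-0.18 and 0.85 on the slides) and sums of 62.7 to 124 and 99.1 to 140. Intestine markers were higher for 6 of 7, with a median of 0.07 (-0.10 and 0.17 on the slides). Their sums were 128 to 182 in WTN2 and 133 to 192 in RB1035. None of these markers passed the test, and the part of tissue makeup in the members' values was not tested.

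Hypodermis markers were higher for 4 of 6, with a median of 0.58 (0.46 and 0.70 on the slides). Their sums were 55.4 to 96.2 in WTN2 and 63.5 to 67.3 in RB1035. Neuronal markers were higher for 5 of 7, with a median of 0.14 (0.30 and 0.14 on the slides). Their sums were 10.8 to 18.8 in WTN2 and 15.7 to 17.6 in RB1035. Germline markers were higher for 2 of 5, with a median of -0.09 (-0.04 and 0.04 on the slides). Their sums were 71.8 to 77.0 in WTN2 and 64.3 to 77.9 in RB1035. Sperm markers were lower in RB1035 for 5 of 7 (1 more had no probe), with a median of -0.59, slide values of -0.15 and -0.77 and sums of 56.6 to 76.9 and 48.9 to 75.4. By array, the median deviation of the sperm markers was 0.26, 0.12 and 0.09 in WTN2 and -0.17, 0.17 and 0.23 in RB1035. The single-probe gene pfk-1.2 (-0.18 and -0.93 on the slides) read -0.65, 0.02 and 0.05 in WTN2. In RB1035 it read -0.83, -0.98 and -0.79, which is another order of arrays. A part of sperm content in the pfk-1.2 value was not tested.

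**Figure D5:**
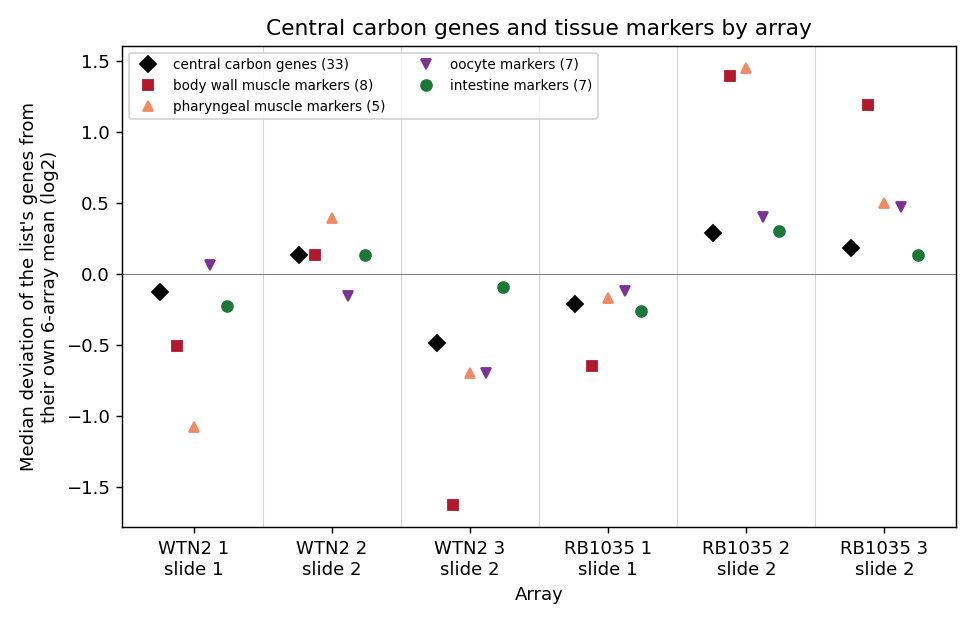
Median deviation of the 33 central carbon genes and of 4 marker lists from their own 6-array means, on the log2 scale, for each array. The central carbon genes and the body wall muscle markers are both lowest on WTN2 3 (-0.49 and -1.63) and highest on RB1035 2 (0.29 and 1.39). By this measure the other lists shown do not share both arrays. Pharyngeal muscle is lowest on WTN2 1 (-1.08), intestine is lowest on RB1035 1 (-0.26) and oocyte is highest on RB1035 3 (0.47).

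No gene of the neighbouring steps passed the test either. Of 10 listed genes for the entry of pyruvate into mitochondria and into the cycle, 8 were tested, with 6 higher, 2 lower and a median of 0.22. The pyruvate carboxylase gene pyc-1, which refills oxaloacetate, differed by 0.75 (adjusted p = 0.65), with -0.04 on slide 1 and 1.14 on slide 2. The malic enzyme gene men-1 differed by 0.61 (adjusted p = 0.652). Both subunit genes of the mitochondrial pyruvate carrier were lower on each slide, mpc-1 at -0.39 (adjusted p = 0.675) and mpc-2 at -0.67 (adjusted p = 0.661).

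Of 10 further citric acid cycle genes, all tested, there were 8 higher, 2 lower and a median of 0.34 (-0.07 and 0.48 on the slides). Among them were the beta and second gamma subunits of NAD-linked isocitrate dehydrogenase, idhb-1 at 0.45 (adjusted p = 0.679) and idhg-2 at 0.49 (adjusted p = 0.669). The succinate dehydrogenase gene sdha-2 differed by 0.33 (adjusted p = 0.689), and sucg-1, for a beta subunit of succinyl-CoA synthetase, differed by -0.40 (adjusted p = 0.686).

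By the gene table of assembly WBcel235, the members are spread over all 6 chromosomes. Of the genes on which most was said, pfk-1.2 and icl-1 lie on chromosome V, pfk-1.1 on X, and fbp-1, pgk-1 and pyk-1 on I. The genes aldo-1, aldo-2 and pck-1 lie on chromosome III, gpd-1 on II and pyk-2 on IV. The probes were designed against an older build, so no coordinates are given.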

How the data were processed

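RNA of 3 WTN2 and 3 RB1035 samples was grouped by the strain in the titles. Per the file headers, the authors extracted spot intensity values with Agilent Feature Extraction 10.7.3.1 from arrays designed against build ce4, and the processed intensity has a background surface subtracted and, except on RB1035 2, a multiplicative surface divided out. The deposited series table holds log2 values with a median of 7.61 on each array. Its making is not stated in the labels or headers, and it served as an alternative.

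From the deposited processed intensity, log2 values were computed, spots of a probe averaged and each array's 75th percentile over 43603 non-control probes subtracted. Probes with an outlier flag (149) were dropped, and a probe was kept if at least 3 of the 6 arrays measured it well above background. Each gene was represented by its brightest probe. Identifiers were matched to the WBcel235 gene table, naming 35397 probes for 20439 genes. Strains were compared with limma 3.58.1 in R 4.3.3 (two-sided, Benjamini-Hochberg over 19817 features, threshold 0.05), checked on simulated data. Alternatives were normexp on median spot and background signals (offset 50; the planned mean signal is not among the columns of the files used), quantile normalization, other filters and probe rules, array weights, slide or replicate number as a block, values within slides, and each array left out.

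The members and lists were chosen with earlier results of these data known. All members are named, with flcn-1, the body wall and pharyngeal muscle markers, and the sperm markers with the lowest and highest difference. At most 4 genes with the smallest p of each neighbouring list are named too. The number of arrays limits the precision.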

Additional observations from a re-analysis of the deposited data

How the results depend on the processing

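None of the 33 genes passed the test in any setting tried, and the lowest adjusted p of a member was 0.275, without RB1035 1. The count of changed features, 20 as reported, was 11 with normexp, 1 with probes well above background on all 6 arrays, 30 with a replicate block, and 17 to 20 with single arrays left out. The replicate numbers were not taken as pairs, since same-numbered arrays deviated together with correlations of 0.12, 0.12 and 0.02 and not every array correlated best with its own number. Members with all RB1035 arrays above all WTN2 arrays numbered 0 with normexp, 3 with quantile normalization, 2 in the deposited series table and 1 to 13 with single arrays left out, the 13 without RB1035 1. Those below numbered 1 to 2 with single arrays left out. Non-overlap is easier to reach with fewer arrays. The share over all features was not counted under these settings, so these counts are not a result about the members. Within slide 1 the median was -0.07 over all members, -0.09 for glycolysis and -0.03 for the citric acid cycle. With single arrays left out the median over all members ran from 0.14 to 0.39, for glycolysis from 0.08 to 0.41, for gluconeogenesis from 0.17 to 0.43 and for the citric acid cycle from 0.05 to 0.38. The sign turned with the mean of probes for hxk-1 (0.19) and tpi-1 (0.11), with array weights for sucl-2 (-0.12), with quantile normalization or array weights for aco-2 (-0.01 each), and for idh-1 over idh-2 in the series table (0.02) and with array weights (0.12). It also turned when single arrays were left out, with ranges of -0.33 to 0.16 for hxk-1, -0.01 to 0.22 for gpi-1, -0.16 to 0.10 for tpi-1, -0.05 to 0.07 for idhg-1, -0.12 to 0.43 for idh-1, -0.20 to 0.22 for sucl-2, -0.02 to 0.67 for gpd-3, -0.08 to 0.40 for aco-1, -0.37 to 0.24 for aco-2, -0.00 to 0.23 for pck-2 and -0.02 to 0.76 for ogdh-1. For ratios the ranges that crossed 0 were -0.49 to 0.13 for gpd-3 over gpd-1, -0.46 to 0.16 for idh-1 over idh-2, -0.04 to 0.36 for aco-1 over aco-2 and -0.25 to 0.01 for mdh-1 over mdh-2. The sign turned for 11 members under a setting with a test and for 20 within a slide, and 11 of the 33 kept 1 sign under all of these. Sizes moved by over 1.5 times for 10 members with normexp, 11 in the series table and 9 with the mean of probes. All 33 members were well above background on all 6 arrays, and the number of arrays limits what could be called.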

Other observations

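The pentose phosphate pathway, which branches from glycolysis after hexokinase and makes NADPH and ribose phosphate, was listed with 6 genes. Of these 5 were tested and none passed the test, with 2 higher, 3 lower and a median of -0.05 (-0.32 on slide 1 and -0.09 on slide 2). The glucose-phosphate dehydrogenase gene gspd-1 differed by -0.19 (limma adjusted p = 0.821) and the transaldolase gene tald-1 by 0.09 (adjusted p = 0.917). Another gene of this list, Y57G11C.3, differed by -0.13 (limma adjusted p = 0.892). Fructose 2,6-bisphosphate, which activates phosphofructokinase, is made and removed by bifunctional enzymes encoded by pfkb-1.1 and pfkb-1.2. These genes differed by -0.14 (adjusted p = 0.857) and -0.23 (adjusted p = 0.763). The glucose transporter genes fgt-1 and fgt-2 were matched to no named probe and were not analysed here.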
